A study of Mus musculus with 24 samples.

Results

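The 10 genes described here, Esco1, Esf1, Caap1, Prr14, Sema3d, Tmed5, Tmem33, Syncrip, Arfip2 and Akap12, were taken by symbol from a table of 55385 mouse genes. They were selected on their small p values in comparisons that involve tamoxifen-treated cells, so their differences in those comparisons are given as descriptions without a test. All 10 were among the 12183 genes tested, those with 1 FPKM (fragments scaled to transcript length and to library depth) or more in at least 3 of 24 libraries. In the tamoxifen group without estradiol, 9 of them had a lower mean than over the other 21 libraries and 1, Prr14, a higher mean. In cells given tamoxifen together with estradiol, no member had all 3 libraries outside the range of the other 21.

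RNA was sequenced from P815, a murine mastocytoma line, in 8 groups of 3 libraries. NC cells carried a negative control vector and SH cells a vector expressing a short hairpin RNA against Esr1, the gene of estrogen receptor alpha. ICI cells were treated with ICI-182780 (fulvestrant, a receptor antagonist that also promotes loss of the receptor protein) and Tamo cells with tamoxifen, a selective modulator of the receptor. NC_E2, SH_E2, ICI_E2 and Tamo_E2 are the same 4 arms with β-estradiol (E2) added. The labels state 24 h of treatment for every group but NC and SH, give no dose, and name no vehicle-only or untransfected group. They do not say that the inhibitor arms carried a vector, so in ICI or Tamo against NC the drug and the vector cannot be told apart. Nothing in the labels says whether the 3 libraries of a group were separate cultures, so p-values measure the spread between these libraries, which may be technical.

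Libraries held 42.1 to 68.8 M estimated counts (median 54.2 M) with 18637 to 20335 genes detected. Of 14 mast cell markers, 10 had a median of 1 FPKM or more, with Kit at 126 FPKM, Cpa3 at 258 and Gata2 at 165, while Fcer1a, Ms4a2, Tpsb2 and Mcpt4 lay under 1. Markers of T, B, epithelial and fibroblast cells had medians under 1 FPKM apart from Lck at 1.22, and of 5 macrophage markers 1, Cd68, passed 1 FPKM at 19.9. Summed mast cell markers spanned 826 to 1079 FPKM in Tamo and 802 to 1227 in the other 21 libraries. Esr1 itself was low throughout, at 0.161 to 0.520 FPKM, and was not tested because it missed the filter. Its mean was 0.278 ± 0.0620 FPKM (SD, n = 3) in SH and 0.342 ± 0.135 in NC, a difference within their spread. With E2 it was 0.215 ± 0.0369 FPKM in SH_E2 and 0.314 ± 0.0781 in NC_E2, a gap larger than either SD, but the groups overlapped (highest SH_E2 library 0.254, lowest NC_E2 library 0.234). Two-sided exact permutation p-values were 0.5 without and 0.2 with E2, where 3 against 3 libraries allow no p under 0.1. An error printed with an FPKM value is the SD of 3 libraries, and one printed with a log2 fold change is the standard error (SE) from edgeR.

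Tamoxifen binds estrogen receptors in the ligand pocket and changes which cofactors they recruit, so it blocks estradiol in some cell types and mimics it in others. The 10 genes belong to no single pathway. Esco1 acetylates the cohesin subunit Smc3, and Prr14 tethers heterochromatin to the nuclear lamina. Esf1 is a nucleolar factor of ribosomal RNA processing, and Syncrip (hnRNP Q) binds messenger RNA and takes part in its splicing, transport and decay. Tmed5 is a p24 cargo receptor of the early secretory pathway, Tmem33 an endoplasmic reticulum membrane protein, and Arfip2 (arfaptin-2) a membrane-bending protein that binds Arf and Arl1 GTPases at the Golgi. Sema3d is a secreted class 3 semaphorin, Akap12 a scaffold that anchors protein kinase A, and Caap1 a regulator of caspase activity and apoptosis.

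The transcripts of 7 of the 10 genes are poor in G and C. GC was not itself a criterion of the choice. In comparisons that chose the genes, however, differences went with transcript GC over all tested genes, as given below. The choice is thus not independent of GC, and nothing is read from this count. Tmed5 (34.97% GC), Syncrip (37.0%), Tmem33 (38.2%), Esf1 (39.0%), Sema3d (39.2%), Esco1 (39.2%) and Caap1 (41.4%) all lie in the lowest 10% of the tested genes, whose median transcript GC was 50.03%. Akap12 (52.1%) and Arfip2 (52.2%) lie slightly above that median and Prr14 (56.2%) at the 82.3 percentile. The percentages are those of 1 GENCODE transcript per gene. In several AT-rich members the coding part is less extreme than the whole transcript, with 45.0% GC over the coding bases of Tmed5 and 50.9% over those of Caap1. As an illustration, 90 coding bases at the middle of the longest coding exon are shown for 3 AT-rich and 3 GC-richer members with G and C in capitals. GC is 31.1% in the Esf1 stretch, 42.2% in both the Tmed5 and the Syncrip stretch, 57.8% in that of Akap12 and 58.9% in that of Arfip2, and Prr14 has G or C at 54 of its 90 bases. Such a stretch does not stand for the whole transcript: those of the AT-rich members that are not shown have 43.3% GC in Caap1, 51.1% in Sema3d and 56.7% in Tmem33, the last close to Akap12.
Esf1 (GRCm38 chr2:140168049-140168138, minus strand): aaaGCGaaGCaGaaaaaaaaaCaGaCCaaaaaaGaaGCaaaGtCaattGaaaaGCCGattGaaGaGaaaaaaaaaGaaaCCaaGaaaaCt
Tmed5 (GRCm38 chr5:108124607-108124696, minus strand): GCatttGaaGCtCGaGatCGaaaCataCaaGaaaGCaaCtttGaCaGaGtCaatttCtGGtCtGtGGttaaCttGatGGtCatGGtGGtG
Syncrip (GRCm38 chr9:88456502-88456591, minus strand): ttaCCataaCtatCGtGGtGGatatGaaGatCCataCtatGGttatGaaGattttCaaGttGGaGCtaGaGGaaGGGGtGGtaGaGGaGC
Akap12 (GRCm38 chr10:4355490-4355579, plus strand): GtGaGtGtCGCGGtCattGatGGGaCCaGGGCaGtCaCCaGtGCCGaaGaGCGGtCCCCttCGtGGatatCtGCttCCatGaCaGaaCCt
Arfip2 (GRCm38 chr7:105637885-105637974, minus strand): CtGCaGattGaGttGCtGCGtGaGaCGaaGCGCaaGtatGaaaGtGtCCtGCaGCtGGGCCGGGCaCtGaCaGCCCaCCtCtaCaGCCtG
Prr14 (GRCm38 chr7:127475294-127475383, plus strand): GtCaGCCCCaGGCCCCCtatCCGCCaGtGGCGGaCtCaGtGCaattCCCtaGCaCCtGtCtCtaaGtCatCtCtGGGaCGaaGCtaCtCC

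RefSeq start-site windows, from 250 bases before to 50 after the start, were given for 8 of the 10 genes, not for Esco1 and Akap12. They were searched on both strands for the estrogen response element GGTCANNNTGACC and for the shorter GGTCA, which the full element contains. The full element was in 0 of the 8 windows, and in 0.07% of all 32851 windows. The shorter motif was in 1 of the 8, that of Tmed5, and in 40.5% of all windows. The Tmed5 window is shown because it holds that match, in capitals.
Tmed5 start-site window (GRCm38.p6 chr5:108132571-108132870, minus strand): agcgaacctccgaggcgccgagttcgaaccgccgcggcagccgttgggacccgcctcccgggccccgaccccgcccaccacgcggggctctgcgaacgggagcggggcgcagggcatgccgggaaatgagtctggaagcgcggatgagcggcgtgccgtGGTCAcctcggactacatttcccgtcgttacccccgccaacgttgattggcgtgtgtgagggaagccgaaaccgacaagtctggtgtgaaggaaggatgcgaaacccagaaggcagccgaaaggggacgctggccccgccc

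Among the nuclear members, Esco1 (ENSMUSG00000024293, chromosome 18, 10566507 to 10610352, GRCm38) had the clearest separation. Its level was 7.32, 7.94 and 7.07 FPKM in the 3 Tamo libraries, against 11.5, 12.1 and 10.6 in Tamo_E2 and 10.9, 11.7 and 9.88 in NC. All 3 Tamo libraries were below every one of the other 21, which ranged from 8.68 to 12.2 FPKM, and the Tamo mean was 68.6% of theirs. The other member with all Tamo libraries below all others was Caap1; 0.156% of the tested genes show that pattern, and since Tamo was used to choose the genes nothing is read from the count. The log2 fold change of Esco1 was 0.62 ± 0.10 for Tamo_E2 against Tamo, -0.53 ± 0.10 for Tamo against NC and 0.57 ± 0.10 for ICI against Tamo, ranks 1, 2 and 1 by p among the tested genes. In bulk RNA, fewer cells with a transcript and less of it per cell cannot be told apart.

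Prr14 (ENSMUSG00000030822, chromosome 7, 127459611 to 127476759) went the other way. It stood at 11.1, 9.66 and 8.15 FPKM in Tamo, 6.49, 6.75 and 6.23 in Tamo_E2 and 9.41, 7.57 and 7.61 in NC. Tamo and Tamo_E2 did not overlap, whereas Tamo and NC did, since NC replicate 1 exceeded the lowest Tamo library. The log2 fold change was -0.57 ± 0.12 with E2 in tamoxifen-treated cells, rank 2, and 0.24 ± 0.12 for Tamo against NC, rank 546. Its Tamo mean was 130% of the mean of the other 21 libraries.

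At the threshold used, an adjusted p under 0.05, the calls cannot show whether the 2 nuclear partner lists moved with these genes, because edgeR called no gene at all. For Tamo_E2 against Tamo, edgeR's quasi-likelihood test with Benjamini-Hochberg adjustment made 0 calls among 12183 genes (0%), beside 434 genes with an unadjusted p under 0.05. DESeq2 called 6 genes and limma 0. With the replicate number as a block edgeR called 3 genes (0.0246%), of which Esco1 and Prr14 are members, and nothing is read from that count. Of 14 genes of cohesin and its loaders, releasers and acetylases, 11 had a positive log2 fold change in that comparison, with a median of 0.12 against -0.01 over all genes tested. Of 14 lamina and heterochromatin tether genes, 6 were positive, with a median of -0.04. Rad21, the most abundant gene of the cohesin list, had 46.0 ± 4.93 FPKM in Tamo and 51.1 ± 8.01 in Tamo_E2.

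**Figure D1:**
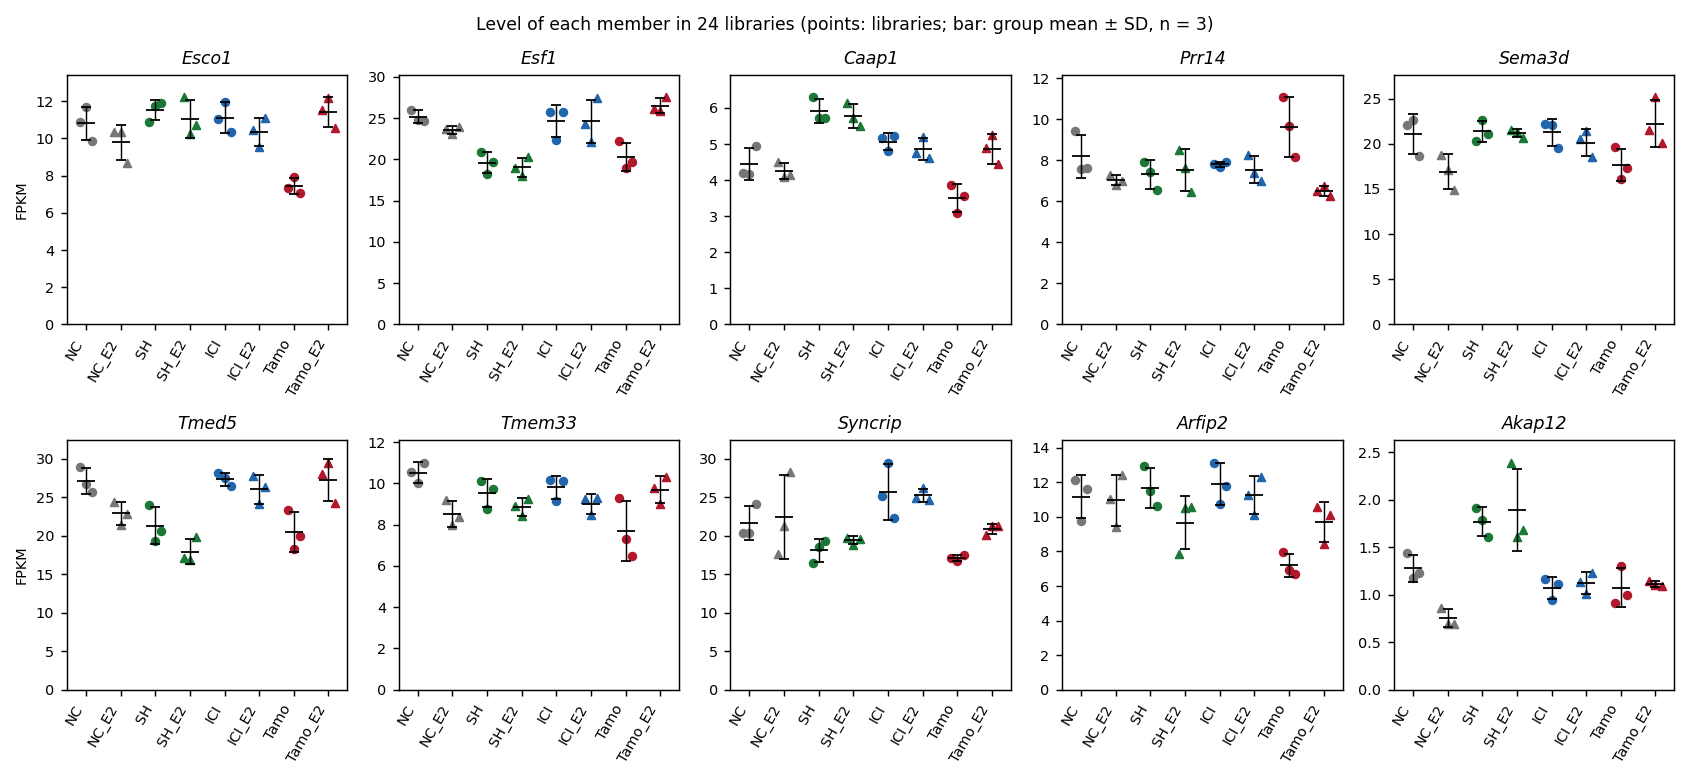
FPKM of each of the 10 genes (y axis, from 0) in the 24 libraries by group (x axis); circles are libraries without E2, triangles libraries with E2, and the bar is the mean ± SD of 3 libraries. The Tamo circles of Esco1 (7.07 to 7.94 FPKM) and Caap1 (3.09 to 3.85) lie below all other points, and the Tamo circles of Prr14 (8.15 to 11.1) lie above the Tamo_E2 triangles.

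With E2 in tamoxifen-treated cells, the nucleolar and the RNA-binding member had smaller differences than Esco1 and Prr14. Esf1 (ENSMUSG00000045624, chromosome 2, 140119883 to 140170564) had 22.2, 19.0 and 19.6 FPKM in Tamo and 26.1, 25.9 and 27.5 in Tamo_E2, with no overlap. NC lay at 26.0, 24.8 and 24.7 FPKM, also above Tamo. Its log2 fold change with E2 in tamoxifen-treated cells was 0.39 ± 0.09, rank 4. The low Tamo level was not unique to that group, since SH and SH_E2 had means of 19.6 ± 1.29 and 19.0 ± 1.13 FPKM.

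Syncrip (ENSMUSG00000032423, chromosome 9, 88447009 to 88482574) had 17.1, 16.8 and 17.5 FPKM in Tamo, the narrowest spread of any group for this gene, and 20.1, 21.3 and 21.3 in Tamo_E2. NC_E2 was the least even group, at 17.6, 21.3 and 28.3 FPKM. SH and SH_E2 were also low, with means of 18.1 ± 1.46 and 19.4 ± 0.503 FPKM, and the lowest SH library, at 16.5 FPKM, lay below all Tamo libraries. The largest difference for Syncrip was ICI against Tamo, 0.57 ± 0.14 and rank 7, where ICI stood at 25.2, 29.5 and 22.3 FPKM. With E2 in tamoxifen-treated cells it was 0.28 ± 0.14, rank 427. Of 16 processome and nucleolar genes, 9 were positive in Tamo_E2 against Tamo (median 0.03), as were 15 of 22 heterogeneous nuclear ribonucleoprotein genes (median 0.08).

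Of the secretory pathway members, Arfip2 (ENSMUSG00000030881, chromosome 7, 105634203 to 105640416) had the lowest Tamo level relative to the other 21 libraries, 66.03% of their mean. It was at 7.98, 6.92 and 6.70 FPKM in Tamo, 10.6, 8.42 and 10.1 in Tamo_E2, 12.1, 9.77 and 11.6 in NC and 13.1, 10.8 and 11.8 in ICI. Tamo did not overlap any of these 3 groups, but SH_E2 replicate 1, at 7.88 FPKM, lay inside the Tamo range. The log2 fold change was -0.63 ± 0.14 for Tamo against NC (rank 8), 0.71 ± 0.14 for ICI against Tamo (rank 3) and 0.43 ± 0.14 with E2 in tamoxifen-treated cells (rank 65).

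Tmed5 (ENSMUSG00000063406, chromosome 5, 108106366 to 108132583) stood at 23.3, 18.2 and 20.0 FPKM in Tamo and 28.1, 29.5 and 24.2 in Tamo_E2. The low Tamo level was not unique to that group, since SH and SH_E2 had means of 21.3 ± 2.37 and 17.9 ± 1.66 FPKM. NC lay at 28.9, 26.7 and 25.7 FPKM and NC_E2 lower, at 24.4, 21.4 and 22.9, so E2 went with opposite differences in Tamo and NC. The log2 fold change with E2 was 0.41 ± 0.10 in Tamo and -0.25 ± 0.10 in NC, and the difference between them, 0.66 ± 0.15, ranked 6. Tmem33 (ENSMUSG00000037720, chromosome 5, 67260565 to 67291461) also had opposite E2 differences in Tamo and NC, with a wider spread in Tamo. It was at 9.27, 7.32 and 6.46 FPKM in Tamo, 9.78, 9.02 and 10.3 in Tamo_E2 and 10.5, 10.02 and 11.005 in NC. Tamo replicate 1 of Tmem33 lay within Tamo_E2. Its log2 fold change with E2 was 0.34 ± 0.11 in Tamo and -0.31 ± 0.11 in NC.

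For the partner lists of these 3 genes, signs in tamoxifen-treated cells are given as values, since no list was tested as a set. With E2, 10 of 18 p24 and COPII coat genes were positive (median 0.03), 7 of 9 tested endoplasmic reticulum shaping genes (median 0.07) and 7 of 17 arfaptin, Arf and Arl genes (median -0.08). The median over all tested genes was -0.01. Arf1, the most abundant gene of the last list, had 216 ± 3.24 FPKM in Tamo and 216 ± 9.22 in Tamo_E2.

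Caap1 (ENSMUSG00000028578, chromosome 4, 94500081 to 94556796) was at 3.85, 3.09 and 3.55 FPKM in Tamo, below the other 21 libraries (4.09 to 6.30). Tamo_E2 had 4.90, 5.26 and 4.44 FPKM and NC 4.20, 4.17 and 4.94. The margin to NC was thus narrow, and the log2 fold change was -0.34 ± 0.11 for Tamo against NC (rank 75) but 0.48 ± 0.11 with E2 in tamoxifen-treated cells (rank 5) and 0.52 ± 0.11 for ICI against Tamo (rank 5). Of 15 tested genes of mitochondrial apoptosis and the caspases, 9 were positive in Tamo_E2 against Tamo, with a median of 0.02.

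Sema3d and Akap12 differed most in comparisons that involve NC_E2. Sema3d (ENSMUSG00000040254, chromosome 5, 12383385 to 12588948) had 18.8, 17.1 and 14.9 FPKM in NC_E2, 22.1, 22.6 and 18.6 in NC, 19.6, 16.1 and 17.3 in Tamo and 21.5, 25.2 and 20.1 in Tamo_E2. Tamo_E2 lay above NC_E2 without overlap, and the log2 fold change of 0.40 ± 0.11 ranked 3 in that comparison. The E2 difference was 0.33 ± 0.11 in Tamo and -0.32 ± 0.11 in NC. Of 13 class 3 semaphorin and receptor genes 4 were tested, of which 1 was positive in Tamo_E2 against Tamo (median -0.10).

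Akap12 (ENSMUSG00000038587, chromosome 10, 4266380 to 4359470) was the least abundant member, with 235 to 874 estimated counts per library, and the one with the smallest E2 difference in Tamo. It stood at 0.918, 1.31 and 0.998 FPKM in Tamo and 1.14, 1.102 and 1.09 in Tamo_E2, a log2 fold change of 0.05 ± 0.17 that ranked 8846. The group that stood apart was NC_E2, at 0.861, 0.696 and 0.696 FPKM, below all other 21 libraries. Of the tested genes, 0.0164% have NC_E2 lowest in that way. Since NC_E2 was also used to choose the genes, nothing is read from that share. The log2 fold change with E2 in NC was -0.77 ± 0.17, rank 3, and Tamo_E2 against NC_E2 gave 0.57 ± 0.17, rank 6. On the log2(FPKM + 1) scale of limma, on which changes of low genes come out smaller, these values were -0.38 and 0.27. The gene ends 252 kb from the start of Esr1, which lies on the same chromosome at 4611593 to 5005614. Of 13 tested protein kinase A and anchoring protein genes, 6 were positive in Tamo_E2 against Tamo (median -0.01).

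E2 was next compared over the 4 arms. Matched by replicate number, 8 members were higher with E2 in all 3 Tamo pairs and Prr14 was lower in all 3, while in NC 7 members were lower in all 3 pairs and none was higher in all 3. Tamo and Tamo_E2 did not overlap for 8 members, a pattern found in 6.33% of the tested genes, and NC and NC_E2 did not overlap for 5, found in 7.01%. These comparisons chose the genes, so nothing is read from the counts.

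The SH arm allows a test, since E2 within SH was not among the comparisons that chose the genes, all of which involve a tamoxifen group. Whether SH libraries entered the choice beside a tamoxifen group is not known, so full independence is not claimed. The comparison of E2 within ICI was not used for the choice either. The ICI and ICI_E2 libraries did enter it, through the comparisons with Tamo and Tamo_E2, so the ICI result is not independent of the choice. In SH, edgeR's quasi-likelihood test made 0 calls among 12183 genes (0%), beside 163 with an unadjusted p under 0.05, while DESeq2 called 2 and limma 0. In ICI it made 0 calls as well (0%), beside 224 with an unadjusted p under 0.05, while DESeq2 called 10 and limma 0. None of the 10 genes passed in either arm by any of the 3 tools, and 1, Tmed5, had an unadjusted p under 0.05, in SH (log2 fold change -0.24 ± 0.10, adjusted p = 1 by edgeR with Benjamini-Hochberg adjustment). The members' log2 fold changes with E2 ran from -0.27 to 0.10 in SH and from -0.11 to 0.08 in ICI. For Esco1 the value in SH was -0.06, with an interval of 2 SE from -0.26 to 0.14. For Akap12 the interval in SH was wide, -0.23 to 0.43. Whether the E2 difference of a member in Tamo differs from that in SH or ICI was not tested, because the Tamo values chose the genes.

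**Figure D2:**
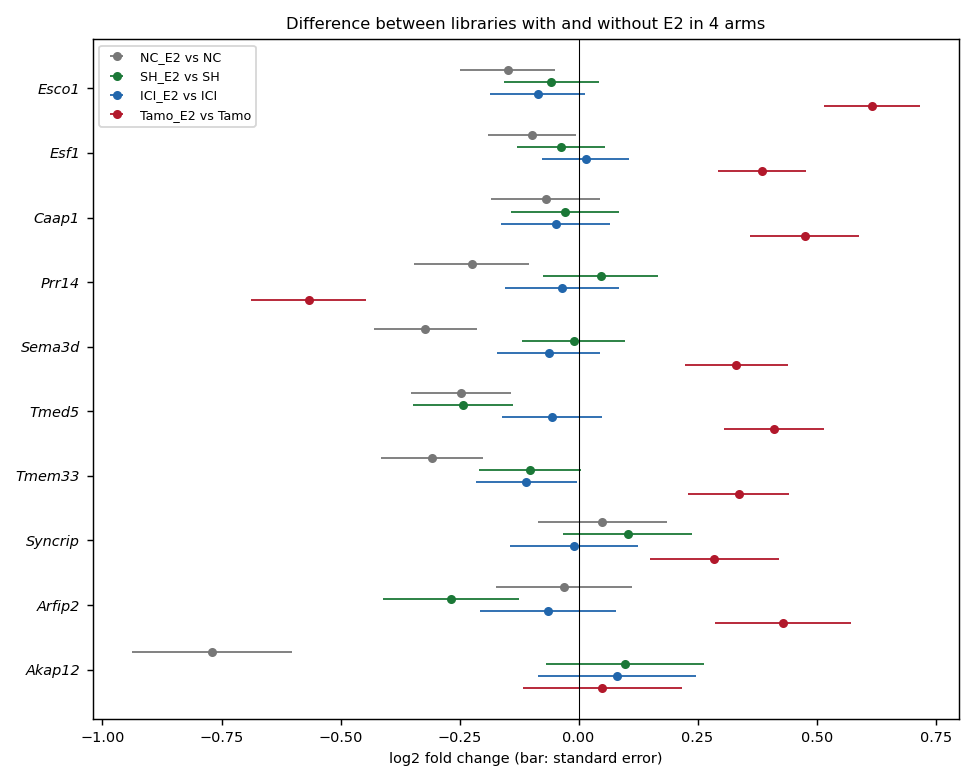
Log2 fold change (x axis) with E2 against without E2 for each of the 10 genes (y axis) in the NC, SH, ICI and Tamo arms, with points for edgeR estimates and bars for 1 SE. The Tamo points run from 0.28 to 0.62 for 8 genes, at -0.57 for Prr14 and 0.05 for Akap12, while the SH and ICI points lie between -0.27 and 0.10.

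Differences that involve Tamo libraries went with transcript GC over all tested genes. Across 12169 tested genes with a transcript, Spearman's correlation of GC with the log2 fold change was -0.451 for Tamo_E2 against Tamo, 0.407 for Tamo against NC and -0.389 for ICI against Tamo. It was 0.271 for E2 in NC, 0.0791 for E2 in SH and 0.0593 for E2 in ICI; genes of a library share its preparation and depth and are not independent. In Tamo_E2 against Tamo, the median log2 fold change went in steps from 0.14 in the lowest of 5 equal groups of genes by GC to -0.11 in the highest. Esco1 was 0.48 above the median of its GC group and Esf1 0.25 above. Transcript length also went with the E2 difference, with Spearman's correlation of -0.331 in NC, -0.232 in SH, -0.329 in ICI and 0.121 in Tamo, and the members' median length lay at the 75.01 percentile.

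**Figure D3:**
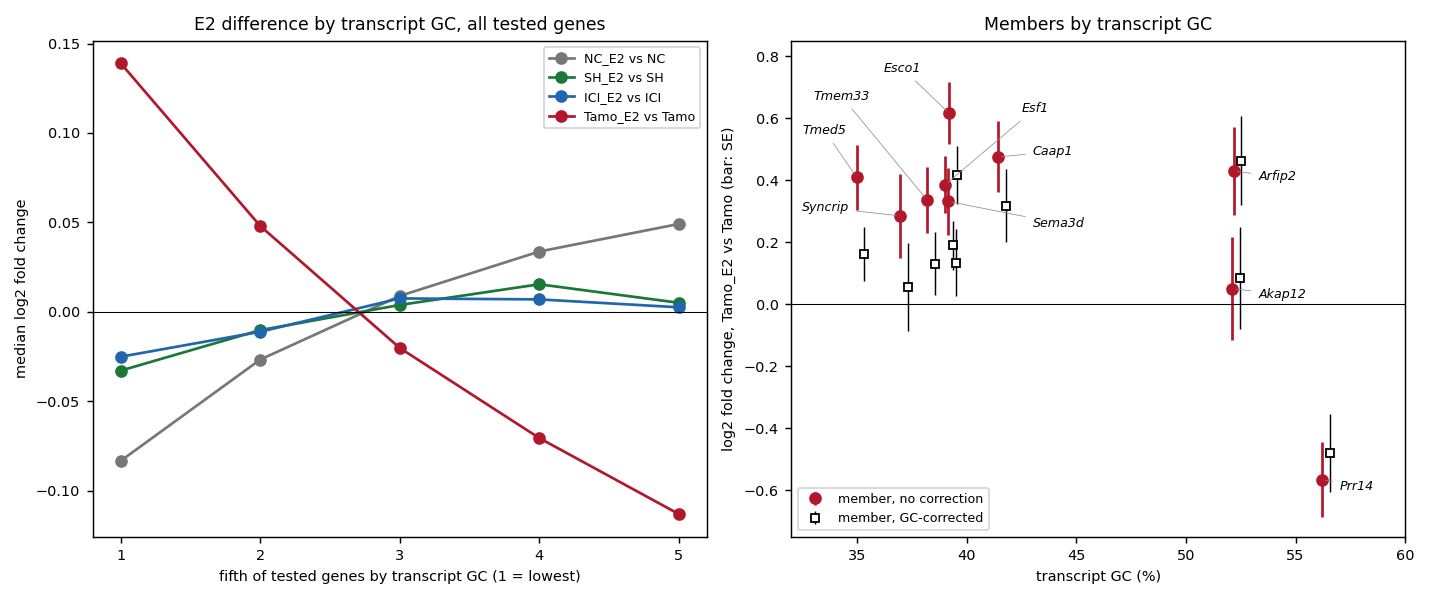
Left, median log2 fold change with E2 (y axis) in 5 equal groups of tested genes ordered by transcript GC (x axis), for 4 arms; right, log2 fold change for Tamo_E2 against Tamo of each member (y axis, bars are 1 SE) against its transcript GC (x axis), filled circles without and open squares (drawn slightly to the right) with GC correction. The Tamo line runs from 0.14 to -0.11, and the 7 AT-rich members move toward 0 with the correction while Arfip2, Akap12 and Prr14 change little.

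The same balance can be read in each library as the mean log2 level of the lowest of the 5 GC groups minus that of the highest, relative to the average over libraries. It was -0.0699, -0.219 and -0.196 in the 3 Tamo libraries and 0.0849, 0.163 and 0.0390 in Tamo_E2. NC lay at 0.105, 0.0998 and 0.0417 and NC_E2 at -0.0576, -0.0139 and -0.101. Tamo replicates 2 and 3 were thus the lowest of all 24 libraries, and 2 other libraries, NC_E2 replicate 3 and SH_E2 replicate 2, lay below Tamo replicate 1.

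**Figure D4:**
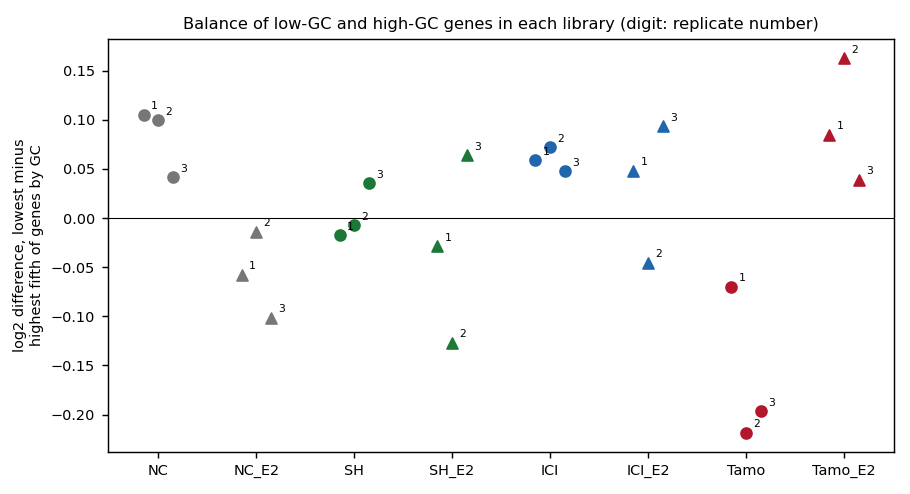
Mean log2 level of the lowest minus the highest of 5 groups of genes by transcript GC (y axis) in each of the 24 libraries by group (x axis), relative to the average library; digits are replicate numbers, circles are without and triangles with E2. Tamo replicates 2 and 3 are lowest at -0.219 and -0.196, and Tamo_E2 replicate 2 is highest at 0.163.

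When a smooth curve of log2 level against GC was subtracted in each library before the fit, a step added after seeing the data, the differences of the AT-rich members shrank. In Tamo_E2 against Tamo, the log2 fold change of Esco1 went from 0.62 to 0.42, of Caap1 from 0.48 to 0.32, of Esf1 from 0.39 to 0.19 and of Tmed5 from 0.41 to 0.16. Sema3d and Tmem33 both went to 0.13 and Syncrip to 0.06. The 3 members with higher GC changed little, with Arfip2 at 0.46, Prr14 at -0.48 and Akap12 at 0.08. The median absolute value over the 10 genes went from 0.40 to 0.18, beside 0.12 over all tested genes without the correction. What set the GC balance of the Tamo libraries was not tested.

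The hairpin arm gave the largest tested differences. In SH against NC, edgeR's quasi-likelihood test with Benjamini-Hochberg adjustment called 1105 of 12183 genes (9.07%), and 2 of the 10 members passed, both lower in SH, as were 4.15% of all tested genes. Esf1 fell by 0.42 ± 0.09 on the log2 scale (adjusted p = 0.00516), from 25.2 ± 0.759 FPKM in NC to 19.6 ± 1.29 in SH (n = 3 each, edgeR). Tmed5 fell by 0.41 ± 0.10 (adjusted p = 0.0162, edgeR), from 27.1 ± 1.65 to 21.3 ± 2.37 FPKM. Both are lower in all 3 SH libraries than in any NC library, a pattern found in 9.73% of the tested genes. These NC libraries also entered the choice of the genes through the comparisons with Tamo.

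With the replicate number as a block, which the pairing check allows for this comparison, edgeR called 2572 genes (21.1%) and Caap1 joined them. Caap1 was 0.35 ± 0.11 higher in SH, with 5.91 ± 0.333 against 4.44 ± 0.439 FPKM, and its adjusted p was 0.0600 without and 0.0211 with the block in edgeR. It also passed in DESeq2 (adjusted p = 0.0117), in limma with a pseudocount of 1 (0.0160) and in edgeR with the GC correction (0.0328). In edgeR without the block it passed in 2 of the 24 fits that left out 1 library, those without NC replicate 3 (adjusted p = 0.0378) and Tamo replicate 2 (0.0373). Akap12 (0.41 ± 0.17, adjusted p = 0.149) and Syncrip (-0.31 ± 0.14, adjusted p = 0.179) did not pass in edgeR. The other 5 members had log2 fold changes between -0.22 and 0.03. The call for Tmed5 was lost in edgeR without NC replicate 1 (adjusted p = 0.0702), SH replicate 2 (0.0788) or SH replicate 3 (0.0545), and without the filter on low values (0.0578). The log2 fold change stayed between -0.41 and -0.36 in these 4 fits.

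SH_E2 against NC_E2 gave 1168 calls in edgeR (9.59%), and 4 members were among them, 2 that rose (5.30% of all tested genes) and 2 that fell (4.28%). Akap12 rose 2.42-fold, a log2 fold change of 1.28 ± 0.17 (adjusted p = 5.09e-05, edgeR), from 0.861, 0.696 and 0.696 FPKM in NC_E2 to 2.39, 1.60 and 1.69 in SH_E2. Its call held in all 24 fits that left out 1 library. Caap1 rose by 0.39 ± 0.11 (adjusted p = 0.0338, edgeR), from 4.24 ± 0.220 to 5.78 ± 0.327 FPKM. Esf1 fell by 0.36 ± 0.09 (adjusted p = 0.0163, edgeR) and Tmed5 fell by 0.40 ± 0.10 (adjusted p = 0.0182, edgeR). The NC_E2 libraries also entered the choice of the genes, and the low Akap12 level in NC_E2 is part of both comparisons.

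DESeq2 and limma called the same 4 members. The 3 smaller calls in edgeR were lost when some single libraries were left out, while the log2 fold changes stayed close to the full fit. In edgeR, Esf1 did not pass without NC_E2 replicate 3 (adjusted p = 0.0632), SH_E2 replicate 1 (0.0569) or SH_E2 replicate 2 (0.0653), with log2 fold changes of -0.34 to -0.33. Tmed5 did not pass in edgeR without NC_E2 replicate 1 (adjusted p = 0.0734), NC_E2 replicate 3 (0.0586), SH_E2 replicate 1 (0.0818) or SH_E2 replicate 2 (0.0727), at -0.39 to -0.35. Caap1 did not pass in edgeR without NC_E2 replicate 1 (adjusted p = 0.0562), 2 (0.120) or 3 (0.102), or without SH_E2 replicate 1 (0.0960) or 2 (0.0822), at 0.37 to 0.43. Without the filter on low values all 3 missed the threshold in edgeR, at adjusted p = 0.0900 for Esf1, 0.0701 for Tmed5 and 0.153 for Caap1.

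**Figure D5:**
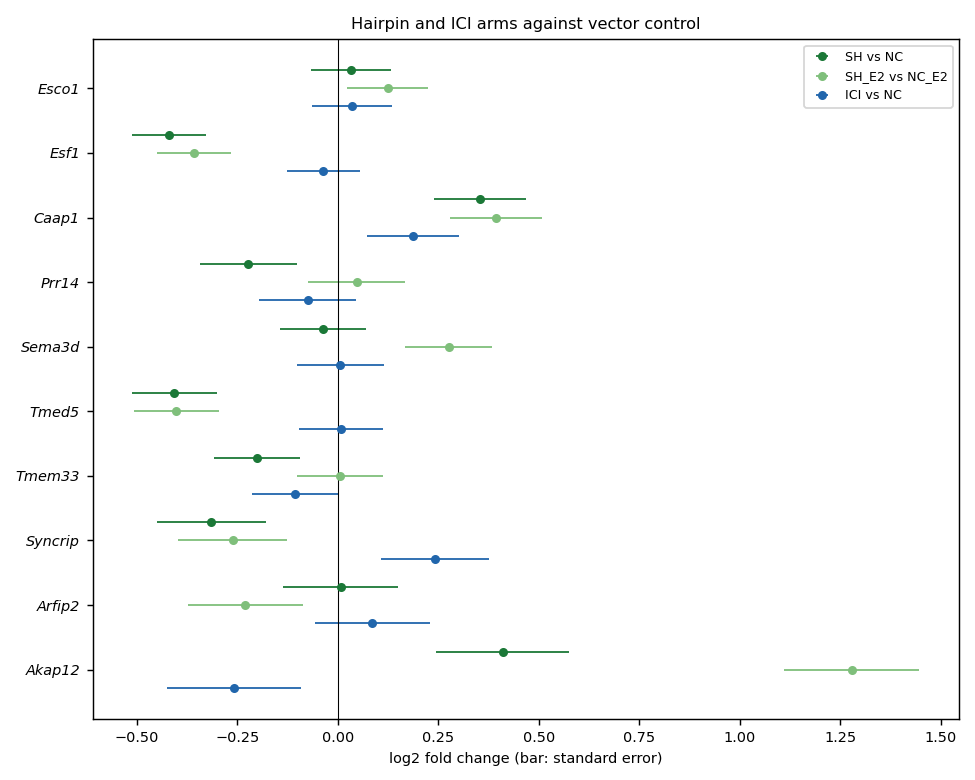
Log2 fold change (x axis) of each of the 10 genes (y axis) for SH against NC, SH_E2 against NC_E2 and ICI against NC, with points for edgeR estimates and bars for 1 SE. Esf1 and Tmed5 lie between -0.42 and -0.36 in both hairpin comparisons, Caap1 at 0.35 and 0.39, and Akap12 at 0.41 and 1.28.

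Of the 142 tested genes in the 10 lists tied to the members, edgeR called 12 in SH against NC (8.45%), 6 that rose and 6 that fell, a share near the 9.07% of all tested genes. With the replicate block it called 32 (22.5%), near the 21.1% of all. The calls are therefore given as values of single genes. In SH against NC, 2 of 18 p24 and COPII genes rose and 1 fell in edgeR. Tmed10, an abundant p24 protein, rose by 1.004 ± 0.11 (adjusted p = 4.85e-06, edgeR), from 21.8 ± 1.49 to 45.5 ± 1.16 FPKM, opposite to Tmed5. Of 9 endoplasmic reticulum shaping genes 2 fell, with the reticulon Rtn3 going from 82.1 ± 4.78 to 39.9 ± 0.633 FPKM (-1.101 ± 0.09, adjusted p = 2.23e-07, edgeR). Of 16 nucleolar genes 1 fell, Rrp9 (-0.66 ± 0.19, adjusted p = 0.0372, edgeR), and 12 of the 16 were negative, with a median of -0.15 against 0.00 over all tested genes. With the replicate block 6 of these 16 fell, beside 10.2% of all tested genes.

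Of 15 apoptosis genes, 1 rose and 1 fell. Casp6, an executioner caspase, rose by 1.13 ± 0.28 (adjusted p = 0.0122, edgeR) and Bcl2, an inhibitor of apoptosis, fell by 0.76 ± 0.17 (adjusted p = 0.00682, edgeR). Among 4 tested semaphorin genes, Sema3g fell and Sema3c rose. Among 13 protein kinase A genes the catalytic subunit Prkacb rose by 1.06 ± 0.19 (adjusted p = 0.00107, edgeR), from 22.0 ± 4.22 to 47.96 ± 11.5 FPKM. Among 22 heterogeneous nuclear ribonucleoprotein genes 1 rose, Hnrnpll (0.31 ± 0.10, adjusted p = 0.0489, edgeR). In the cohesin, lamina and Arf lists edgeR called 0 genes, with 1 of 14, 2 of 14 and 3 of 17 at an unadjusted p under 0.05, 0, 0 and 1 called by DESeq2 and 0, 0 and 1 by limma. With the replicate block, 1 cohesin gene rose and 2 fell, 2 lamina genes rose and 1 Arf gene rose in edgeR. For the same comparison, 1 of 11 tested mast cell markers rose and 4 fell. The one that rose was Cpa3, with 219 ± 61.1 FPKM in NC and 517 ± 47.2 in SH. Of the 11, 8 were negative, with a median log2 fold change of -0.38. The summed mast cell markers, which include Cpa3, were 1006 to 1208 FPKM in SH and 802 to 1040 in NC. The part of these markers in the members' differences was not tested.

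ICI against NC gave 1 call in edgeR (0.00821%), with 119 genes at an unadjusted p under 0.05, and no member had one. The members' log2 fold changes ran from -0.26 (Akap12) to 0.24 (Syncrip). In ICI without E2 Esco1 stood at 11.1 ± 0.823 FPKM, Caap1 at 5.07 ± 0.229 and Arfip2 at 11.9 ± 1.20. ICI_E2 against Tamo_E2, in the presence of E2, gave differences between -0.14 (Sema3d) and 0.28 (Syncrip) for the 10 genes. ICI and Tamo libraries also entered the choice of the genes.

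Across the 24 libraries, after the mean of each replicate number was subtracted, the members correlated in 45 pairs, of which 32 were positive and 13 negative. The highest was Esf1 with Tmed5, r = 0.891, which also had 0.545 within groups. Esco1 with Caap1 had 0.705 over all libraries and -0.232 within groups. Prr14 was negative with 8 of the other 9. By the same measure the genes most like each member, 2 for each, had r from 0.641 to 0.933, and 16 of these 20 genes lie in the lowest of the 5 GC groups. The closest were Ddx10 for Esf1 (r = 0.933), Mtpn for Tmed5 (0.923), Slc2a9 for Akap12 (0.919), Dynlt3 for Caap1 (0.904) and Tgs1 for Esco1 (0.875). Libraries share groups, depth and GC balance, so these values describe likeness over 24 points.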

How the data were processed

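RNA from P815 cells was measured in 24 libraries of 8 groups. The submitters' processing notes name cutadapt, HISAT2 and GRCm38, without versions; which quantifier and annotation were used is not given in the sources. The authors deposited 1 table with FPKM values beside a count for each gene and library, per the file headers. The deposited counts are whole numbers that often come in steps of 4 (16.2% of values from 1 to 40 are 4), so they were treated as estimated counts. No columns of other samples were present. Strand use is not stated, so reads of a gene and of an overlapping or antisense gene cannot be separated.

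Genes with 1 FPKM or more in at least 3 libraries (12183) were fitted in edgeR 4.0.16 (R 4.3.3) by quasi-likelihood with TMM scaling, a mean for each of the 8 groups and no replicate block. Tests were two-sided with Benjamini-Hochberg adjustment over all tested genes and a threshold of 0.05. SE was derived from the size of the log2 fold change and its F statistic, and intervals are 2 SE to each side. The common dispersion was 0.0712. Alternatives were a replicate block, DESeq2 1.42.0, limma 3.58.1 on log2(FPKM + 1) and log2(FPKM + 0.1), no filter, counts divided by 4, and leaving out each library. A GC correction (lowess with a span of 0.3 per library), alone and with the block, was added after seeing the data. The fits by edgeR, limma with a pseudocount of 1, DESeq2 and edgeR with the GC correction were tested on simulated data, for Tamo_E2 against Tamo only. The other steps were not tested in this way. Same-numbered libraries of compared groups deviated together (correlation over 0.1 in every pair) in 10 of 11 pairs of groups. The exception was SH_E2 with NC_E2, where the lowest correlation was 0.0967.

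The members and gene lists were chosen with earlier results of these data known. Genes named beside the members were, for each list, at most 3 of those that passed in SH against NC with the smallest p, or the most abundant gene where none passed. For each member the 2 most correlated genes were taken, and Esr1, Kit, Cpa3 and Hmgcs1 were fixed by name. Of the lists not tied to a member, edgeR called in SH against NC 0 of 20 cholesterol genes (3 at an unadjusted p under 0.05, 1 by DESeq2, 0 by limma). Of these 20, 19 were negative (median log2 fold change -0.36) and 7 fell with the replicate block, with Hmgcs1 at 49.1 ± 26.9 FPKM in SH and 66.6 ± 2.66 in NC. A further list is not reported here. Of the T, B, macrophage, fibroblast and epithelial marker lists at most 1 gene each was tested, and none of these passed. Sequences came from RefSeq (GRCm38.p6) for start-site windows and from GENCODE transcripts of GRCm38 for coding stretches.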

Additional observations from a re-analysis of the deposited data

Results flagged for a closer look

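Matched by replicate number, some members moved one way with E2 in all 3 Tamo pairs and the other way in all 3 pairs of another arm. The difference from SH and ICI was not tested, because the Tamo values in it chose the members. How common such opposite pairs are over all tested genes is not given, so nothing is read from the number of members. The difference from NC was fitted over all genes, but it is one of the comparisons that chose the members, so its p-values are not used. Against NC, the E2 effect in Tamo was larger by 0.764 on the log2 scale for Esco1, 0.486 for Esf1, 0.653 for Sema3d, 0.661 for Tmed5 and 0.658 for Tmem33. With the GC correction the fitted difference from NC was 0.45 for Esco1, 0.17 for Esf1, 0.34 for Sema3d, 0.25 for Tmed5 and 0.31 for Tmem33. Against SH the E2 effect in Tamo was larger by 0.655 for Tmed5, 0.450 for Tmem33 and 0.707 for Arfip2. The SH pairs of Arfip2 were uneven, at -0.710, -0.113 and -0.0174. Against ICI the E2 effect in Tamo was larger by 0.392 for Sema3d and 0.458 for Tmem33. With the GC correction, Tmed5 had 0.16 in Tamo and -0.16 in SH, and Arfip2 0.46 and -0.27. Tmem33 then had 0.13 in Tamo, -0.05 in SH and -0.07 in ICI, and Sema3d 0.13 in Tamo and -0.02 in ICI. The transcripts of these genes other than Arfip2 are in the lowest 10% of tested genes by GC.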

How the results depend on the processing

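The number of genes called over the whole table depended on the tool where it was near 0. DESeq2 called 6 genes for E2 in Tamo, 16 for the difference of E2 between Tamo and NC, 11 for Tamo against NC, 7 for ICI against Tamo, 2 for Tamo_E2 against NC_E2, 2 for ICI_E2 against Tamo_E2, 4 for E2 in NC, 2 for E2 in SH, 10 for E2 in ICI and 5 for ICI against NC, where edgeR called 0 or 1. The replicate block gave 3 calls for E2 in Tamo (Esco1, Prr14 and Nlrp3; 0.0246%) and 1 for E2 in ICI. With the GC correction and the block these counts were 2 and 1, and Esco1 (adjusted p = 0.117 in edgeR) and Prr14 (0.120) were not among the 2. With no filter, E2 in SH gave 1. For SH against NC the block gave 2572 calls instead of 1105, and with the GC correction 2592. For SH_E2 against NC_E2 it gave 2667 (21.9%) instead of 1168, and with the GC correction 2725. Sema3d was among the 2667 (adjusted p = 0.0277 in edgeR, 0.130 without the block). The pairing check did not allow the block for SH_E2 against NC_E2, and the NC_E2 libraries also entered the choice of the genes. Leaving out each library in turn gave 0 to 1 calls for E2 in Tamo, in NC, in SH and in ICI, for the difference of E2 between Tamo and NC and for ICI against Tamo, 1 to 3 for Tamo against NC, 0 for both Tamo_E2 against NC_E2 and ICI_E2 against Tamo_E2, 0 to 2 for ICI against NC, 781 (without NC replicate 3) to 1266 for SH against NC and 778 (without NC_E2 replicate 3) to 1340 for SH_E2 against NC_E2. On the FPKM scale limma split its calls 771 up and 413 down in SH against NC, edgeR 600 and 505, and 780 and 410 in SH_E2 against NC_E2, edgeR 646 and 522. Without Tamo replicate 1, Tmem33 in Tamo against NC was -0.60. With the GC correction Syncrip turned to -0.13 in the difference of E2 between Tamo and NC. The causes were not tested. Over all tested genes the SE had a median of 0.21, and a p over the threshold does not show equal levels.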
